A study of Mus musculus with 6 samples.

Results

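The replication-dependent histone genes were followed in RNA sequencing of cytotoxic (CD8) T cells of the mouse. Members were all rows of the deposited table whose symbol began with Hist1h, Hist2h, Hist3h or Hist4h, with pseudogene names (-ps) left out, which gave 69 genes of 54532. They comprised 6 linker histone H1 genes, 20 H2A, 18 H2B, 12 H3 and 13 H4 genes. By GENCODE M21 on mm10, 56 lie on chromosome 13, 10 on chromosome 3, 2 on chromosome 11 and 1 on chromosome 6. GENCODE lists 67 as protein-coding, the exceptions being Hist1h2aj and Hist1h2al. The cells came from spleen and lymph nodes of wild-type mice (WT, n = 3) or of mice labelled as knockout of Ptpmt1 (KO, n = 3), a mitochondrial phosphatase of cardiolipin synthesis. Purified cells of both groups had been stimulated in vitro for 3 days with beads carrying CD3 and CD28 antibodies. The labels give no strain, age or sex, do not say how or in which cells Ptpmt1 was removed, and do not state that replicates came from separate animals. P-values therefore reflect only how far these 6 libraries differ, and part of that spread may be technical.

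Chromosomal DNA is wrapped around an octamer of the core histones H2A, H2B, H3 and H4, and linker histone H1 binds where the DNA enters and leaves. The genes studied here supply these proteins in bulk during S phase, when newly copied DNA has to be packed, and T cells divide rapidly after activation. Their transcripts are unusual in ending at a short stem-loop instead of a poly(A) tail. The stem-loop binding protein SLBP and the U7 small nuclear ribonucleoprotein act in forming that end, and the transcripts are degraded when DNA synthesis stops. Library preparation used a kit of the kind that captures mRNA by its poly(A) tail, so the values are not levels of total histone mRNA. Some histone genes also yield polyadenylated transcripts, and the share of either form in these reads was not tested.

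The stem-loop is shown because it defines this class of transcript. A script searched the sense strand of GENCODE M21 transcripts for the 16-base core of the histone stem-loop, allowing either pyrimidine at the variable positions of its 5′ arm and either purine at those of its 3′ arm. In the loop, either pyrimidine was allowed at an inner base and any base at the last. The core was found in 46 of the 69 members and in 86 of 55450 genes (0.155%). The commonest core stood in 26 members. In the examples, written as DNA from 5′ to 3′, capitals mark the core and lower case the bases beside it. Hist1h4i, Hist1h3c, Hist1h2bj and Hist1h2ao were the most abundant H4, H3, H2B and H2A transcripts, Hist1h1c the most abundant H1, and Hist1h4m and Hist3h2ba had the lowest p in the genotype test.
Hist1h4i: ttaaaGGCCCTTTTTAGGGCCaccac
Hist1h3c: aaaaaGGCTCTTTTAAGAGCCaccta
Hist1h2bj: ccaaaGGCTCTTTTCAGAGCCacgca
Hist1h2ao: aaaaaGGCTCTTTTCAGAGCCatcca
Hist1h1c: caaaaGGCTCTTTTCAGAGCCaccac
Hist3h2ba: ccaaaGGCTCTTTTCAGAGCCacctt
Hist1h4m: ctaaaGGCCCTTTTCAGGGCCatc
Annotated transcripts ran 330 bases past the core in Hist1h4i and 840 in Hist1h1c, but 3 in Hist1h4m. Of the 23 members without a match, 15 had a deposited length under 500 bases that was a multiple of 3, as a model of the coding part alone would have.

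The promoters are shown because elements differ between families, although H2A and H2B promoters had nearly the same counts. RefSeq promoters (GRCm38.p6) were found for 61 members, with 62 entries of 32851 in all, and the 250 bases before the start were searched on both strands. CCAAT stood in 6 of 6 H1, 17 of 17 H2A, 17 of 17 H2B, 8 of 10 H3 and 3 of 12 H4 promoters, against 33.8% of all promoters. ATTTGCAT, the octamer known from H2B promoters, stood in 7 of 17 H2A and 7 of 17 H2B promoters and in no H1, H3 or H4 promoter, against 1.60% of all. AAACACA, the H1 box, stood in 5 of 6 H1, 2 of 17 H2A and 2 of 17 H2B promoters and in no H3 or H4 promoter, against 6.25% of all. TATAAA stood in 29 of 62, against 12.4% of all. None of the 4 motifs contains another, and a match is a description of the sequence. In 13 head-to-head pairs of an H2A with an H2B gene, the starts lay 176 to 306 bases apart. Where both genes had promoter entries, their windows were largely the same DNA, so the H2A and H2B counts are not independent. In the 7 promoters that follow, capitals mark any of the 4 motifs, read on either strand.
Hist1h1b: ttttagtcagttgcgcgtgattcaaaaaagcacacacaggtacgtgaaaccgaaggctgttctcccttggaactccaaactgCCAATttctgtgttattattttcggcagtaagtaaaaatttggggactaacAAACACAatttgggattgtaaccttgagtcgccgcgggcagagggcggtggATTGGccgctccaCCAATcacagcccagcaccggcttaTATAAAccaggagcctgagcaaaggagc
Hist2h2ac: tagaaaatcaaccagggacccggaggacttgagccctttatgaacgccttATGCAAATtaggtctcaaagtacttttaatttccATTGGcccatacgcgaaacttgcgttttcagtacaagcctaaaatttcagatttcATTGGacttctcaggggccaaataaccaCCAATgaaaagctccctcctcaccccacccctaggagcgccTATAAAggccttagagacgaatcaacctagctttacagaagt
Hist1h2bj: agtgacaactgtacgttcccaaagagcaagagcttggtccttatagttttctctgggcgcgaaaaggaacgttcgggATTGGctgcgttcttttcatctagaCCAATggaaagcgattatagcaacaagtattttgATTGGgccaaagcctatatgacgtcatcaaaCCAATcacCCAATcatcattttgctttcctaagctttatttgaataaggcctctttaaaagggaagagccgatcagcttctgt
Hist3h2ba: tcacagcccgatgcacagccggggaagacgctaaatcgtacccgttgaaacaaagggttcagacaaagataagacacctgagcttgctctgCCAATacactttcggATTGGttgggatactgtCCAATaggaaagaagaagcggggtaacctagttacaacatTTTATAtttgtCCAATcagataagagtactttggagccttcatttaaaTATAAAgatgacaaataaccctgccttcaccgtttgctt
Hist1h3c: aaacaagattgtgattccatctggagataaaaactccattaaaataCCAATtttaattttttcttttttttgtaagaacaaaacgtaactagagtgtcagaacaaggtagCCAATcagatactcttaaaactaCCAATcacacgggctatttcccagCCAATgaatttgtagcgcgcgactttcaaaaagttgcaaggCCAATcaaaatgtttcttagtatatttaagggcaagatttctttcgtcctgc
Hist1h4i: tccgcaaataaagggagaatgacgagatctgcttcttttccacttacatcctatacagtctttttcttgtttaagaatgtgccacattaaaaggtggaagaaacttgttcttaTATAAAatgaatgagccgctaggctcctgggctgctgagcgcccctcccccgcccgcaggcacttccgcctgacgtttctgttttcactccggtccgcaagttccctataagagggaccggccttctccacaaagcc
Hist1h4m: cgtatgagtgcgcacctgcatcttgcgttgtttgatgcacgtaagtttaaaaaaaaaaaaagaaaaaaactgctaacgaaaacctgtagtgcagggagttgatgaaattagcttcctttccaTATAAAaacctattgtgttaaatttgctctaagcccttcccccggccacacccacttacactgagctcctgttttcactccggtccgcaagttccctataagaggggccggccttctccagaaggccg
In these windows, the Hist1h1b sequence is chr13:21780626-21780875 on the minus strand, the Hist2h2ac sequence is chr3:96220881-96221130 on the minus strand, the Hist1h2bj sequence is chr13:22042948-22043197 on the plus strand, the Hist3h2ba sequence is chr11:58948661-58948910 on the plus strand, the Hist1h3c sequence is chr13:23745522-23745771 on the minus strand, the Hist1h4i sequence is chr13:22041363-22041612 on the minus strand and the Hist1h4m sequence is chr13:21811496-21811745 on the plus strand. Hist1h2bj faces Hist1h2ag from a start 270 bases away, so its window is largely that of both genes.

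The libraries held 14932604 to 16819913 reads each, rebuilt from the deposited FPKM (fragments scaled to gene length and sequencing depth). KO replicate 3 stood apart: it had 0 reads of Xist, the RNA of the inactive X chromosome, and 1837 of the Y-linked Ddx3y, whereas the other 5 libraries had at least 3513 and 0. Reads of mitochondrial genes ranged from 2.38% in KO replicate 3 to 7.53% in KO replicate 2. Genes listed as markers of neutrophils and mast cells summed to 77.2 FPKM in KO replicate 3 and 6.08 to 18.3 in the others, with 5 of 5 above the filter. Mcpt8, Cpa3 and Mpo carried this sum, at 43.25, 25.86 and 5.65 FPKM in KO replicate 3, their highest library. S100a8 and S100a9 were not highest there, at 1.76 and 0.637 beside 1.89 and 2.73 in WT replicate 3. Which cells the 5 RNAs came from was not tested. Summed markers of gamma-delta T cells were 52.4 FPKM in KO replicate 3 against 9.01 to 21.2, with 2 of 4 above the filter. Summed CD8 T cell markers were 2175 FPKM in KO replicate 3 and 3662 to 6916 in the others, with 10 of 10 above the filter. The receptor genes Trbc1 and Trbc2 carried much of this sum. Both were lowest in KO replicate 3, as were Cd8b1, Cd3d, Cd3g, Trac, Lck and Cd2. Cd8a and Cd3e were lowest in KO replicate 2 instead, and Cd8a had 135.1, 108.8 and 145.0 FPKM in KO replicates 1 to 3. At an unadjusted p under 0.05, 4 of the 10 (Cd8a, Cd3e, Trac and Cd2) were lower in KO and 0 higher, beside 10.2% and 11.5% of all genes tested. Summed markers of CD4 T, B, NK, myeloid and erythroid cells or platelets reached at most 25.05 FPKM in any library, which was for B cells in WT replicate 1. The part of these differences in the results was not tested, and in bulk RNA fewer cells of a type and less RNA per cell cannot be told apart. Ptpmt1 itself had 3.75, 3.84 and 4.13 FPKM in WT and 1.0004, 1.58 and 1.504 in KO (limma adjusted p = 0.0884).

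Histone genes took a small share of these libraries, and their summed level followed single libraries more than the genotype label. Over the members, reads summed to 2985, 2584 and 4962 in WT replicates 1 to 3 and to 4651, 4622 and 2436 in KO replicates 1 to 3, which is 0.0148% to 0.0303% of all reads. Their FPKM summed to 265.6, 240.7 and 447.2 in WT and to 471.6, 553.8 and 208.9 in KO, with means of 317.8 ± 112.7 (SD, n = 3) and 411.4 ± 180.2 (SD, n = 3). KO replicates 1 and 2 were the highest, WT replicate 3 came close to them, and KO replicate 3 was the lowest of all 6, so the groups overlapped. By reads and by share of reads the order at the top turned, with WT replicate 3 above KO replicates 1 and 2. The 10 most abundant members held 64.3% of the summed level over all libraries.

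By family, H1 genes summed to 14.8, 16.2 and 18.1 FPKM in WT and 21.4, 23.7 and 9.67 in KO. H2A genes summed to 70.7, 60.9 and 122 in WT and 121, 151 and 36.45 in KO. H2B genes summed to 58.3, 56.0 and 97.05 in WT and 94.1, 87.9 and 49.6 in KO. In each of these families KO replicate 3 was the lowest library. H3 genes, with 46.8, 47.0 and 120 FPKM in WT and 107, 126 and 62.7 in KO, differed in this respect, since KO replicate 3 lay above WT replicates 1 and 2. H4 genes summed to 75.1, 60.6 and 90.4 in WT and 127.5, 165 and 50.5 in KO. No family separated the groups. The ratio of summed H1 to summed H4 did, at 0.197, 0.267 and 0.200 in WT and 0.168, 0.143 and 0.191 in KO, a ratio singled out after its values were seen among 3 ratios between families. The ratios of H3 to H4 and of H2A to H2B overlapped between groups.

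**Figure D1:**
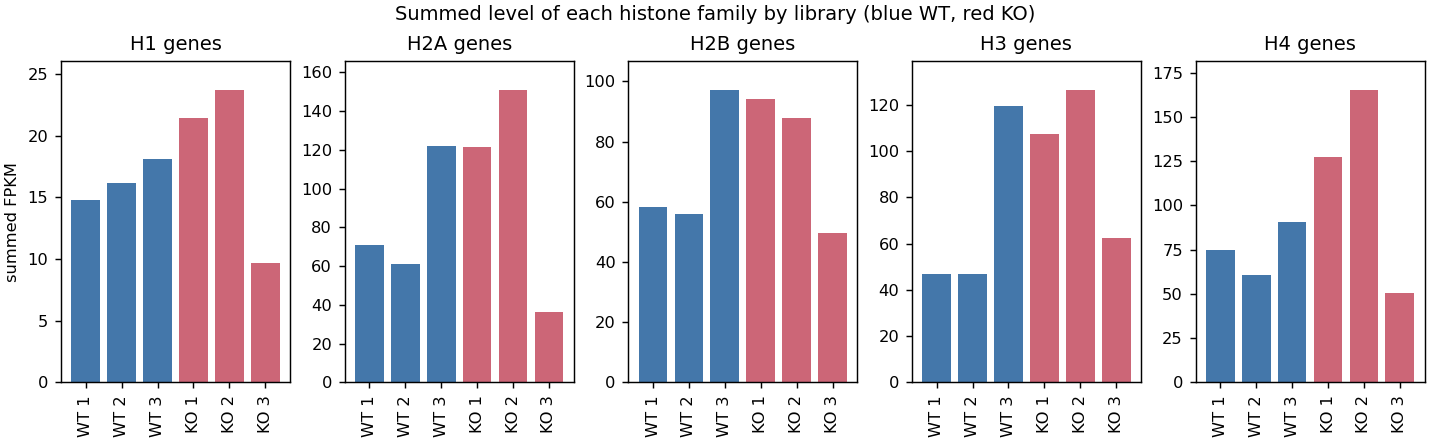
Summed FPKM of the genes of each histone family (vertical axis, each panel on its own scale) in the 6 libraries (horizontal axis, 1 bar each, blue WT and red KO). KO replicates 1 and 2 are high in every family, WT replicate 3 is high for H2A, H2B and H3, and KO replicate 3 is the lowest bar for all families but H3.

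A mean of at least 0.5 FPKM over the 6 samples was reached by 45 of the 69 members: 4 H1, 12 H2A, 11 H2B, 8 H3 and 10 H4 genes. Of the 24 others, 11 had 0 reads in every library and 13 had some reads. Long deposited gene models kept some of the latter below the filter. Hist1h2be had 214 reads over the 6 libraries at a length of 4446 bases, and the H1 gene Hist1h1d had 183 at 7425. Among the 11 genes at 0, 9 had under 50% of their 50-base stretches unique to the gene, and for 5 of them (Hist2h2aa1, Hist2h2aa2, Hist2h3c1, Hist2h3b and Hist2h2bb) no stretch was unique. How reads with several matches were counted is not given in the sources used here, so a 0 for such a gene does not show that it was silent. Of the 45 that passed, 22 were also under 50% unique. Hist1h4m, Hist1h4j, Hist1h2ap and Hist1h2ad passed through the KO mean alone and Hist3h2a through the WT mean alone.

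Genotype was tested with limma on log2(FPKM + 0.5) over the 12654 genes that passed the filter, and a gene was called at a Benjamini-Hochberg adjusted p under 0.05. None of the 45 histone genes was called (0 of 45), where 0.0395% of all genes tested were (0.0237% higher and 0.0158% lower in KO). At an unadjusted p under 0.05 there were 5 members, 4 higher and 1 lower in KO, or 11.1% beside 21.8% of all genes (11.5% higher and 10.2% lower). The groups did not overlap for 3 members (6.67%), beside 27.8% of all genes (14.5% higher and 13.3% lower), so both shares lay below the background. Point estimates leaned to higher values in KO: 36 of 45 were above 0, a share of 80.0% beside 52.4% of all genes. Their median log2 fold change was 0.35, beside 0.03 for all genes. The filter favoured the direction of the 5 genes that passed through 1 group alone, and of the other 40 genes 32 were above 0 (median 0.33). Of these 40, 3 had an unadjusted p under 0.05 and 1 did not overlap between the groups. With no filter, 46 of 58 members with reads were above 0 (50.4% of all genes), and with libraries set to equal read totals, which moved the median of all genes to -0.10, 34 of 45 were. That scaling lowered the median of the members to 0.21, of H2A to 0.12 and of H2B to 0.13. Standard errors were wide, with a median of 0.449 for members and 0.247 for all genes. Adjusted p ranged from 0.0948 to 0.9945 over the members.

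**Figure D2:**
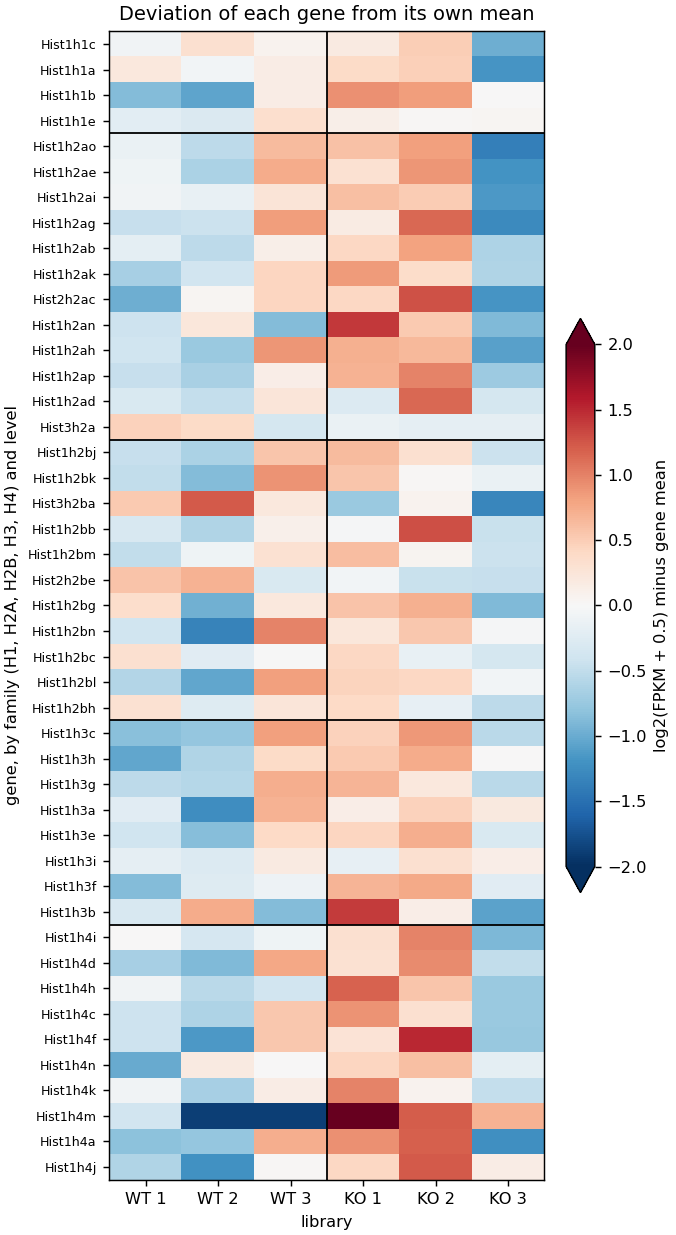
Log2(FPKM + 0.5) of each of the 45 histone genes that passed the filter minus that gene's mean over the 6 libraries (colour, saturated beyond 2 in either direction), with libraries in columns and genes in rows, grouped by family and ordered by level. KO replicates 1 and 2 and WT replicate 3 are mostly red, and KO replicate 3 and WT replicate 2 are mostly blue, while Hist3h2ba, Hist2h2be and Hist3h2a are red in WT replicates 1 and 2.

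Most members shared 1 pattern across libraries, as the heat map of deviations shows. The highest value fell in KO replicate 2 for 22 of the 45 genes, in KO replicate 1 for 13, in WT replicate 3 for 7, in WT replicate 2 for 2 and in WT replicate 1 for 1. The lowest value fell in KO replicate 3 for 20, in WT replicate 2 for 18, in WT replicate 1 for 6 and in WT replicate 3 for 1. KO replicate 3 was below both other KO libraries for 42 genes, and WT replicate 3 was above both other WT libraries for 31. KO replicates 1 and 2 exceeded WT replicates 1 and 2 for 38 genes, and exceeded all 3 WT libraries for 16. Without KO replicate 3, 42 of 45 were above 0 with a median log2 fold change of 0.76. Then 3 genes were called, Hist1h3f, Hist1h4h and Hist1h4m, all higher in KO, which is 6.67% of members beside 13.7% of all genes (8.12% higher and 5.58% lower). Of these, Hist1h4m passed the filter through its KO mean alone, so the filter favoured its direction. The members with an unadjusted p under 0.05 then numbered 13, or 28.9% beside 35.0% of all genes.

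The linker histones compact the fibre between nucleosomes. Of the 4 tested, 2 were above and 2 below 0, with a median log2 fold change of -0.04. Without KO replicate 3 all 4 were above 0, with a median of 0.28. Hist1h1b, the mouse H1.5 gene, had 1.07, 0.876 and 2.68 FPKM in WT and 4.87, 4.62 and 2.39 in KO. KO replicates 1 and 2 were the highest, and WT replicate 3 lay above KO replicate 3. Its log2 fold change was 1.18 with an SE of 0.392 (limma adjusted p = 0.161), on 10 to 57 reads a library, with all of its sequence unique. Hist1h1c, the most abundant linker gene here and known to give polyadenylated transcripts as well, had 7.52, 10.02 and 8.32 FPKM in WT and 9.04, 11.3 and 3.80 in KO. Values in KO spanned those of WT (log2 fold change -0.21, SE 0.372, limma adjusted p = 0.777). Hist1h1a had 4.53, 3.69 and 4.30 FPKM in WT and 5.14, 5.55 and 1.42 in KO, so that 2 KO libraries lay above WT and 1 below. Hist1h1e had means of 1.76 ± 0.571 and 1.91 ± 0.0850 FPKM (SD, n = 3 each).

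Of the H2A genes, which supply the partner of H2B in the nucleosome, 9 of 12 were above 0 (median log2 fold change 0.26), and none had an unadjusted p under 0.05. Without Hist1h2ap, Hist1h2ad and Hist3h2a, which passed the filter through 1 group alone, 7 of 9 were above 0 (median 0.17). Hist1h2ao had 21.9, 16.6 and 37.7 FPKM in WT and 36.5, 43.02 and 9.004 in KO. Hist1h2ae had 14.0, 9.43 and 25.3 in WT and 18.6, 27.9 and 6.22 in KO. For both genes KO values reached above and below the WT range, and their log2 fold changes were 0.02 (SE 0.602) and -0.01 (SE 0.575). Hist1h2ai had means of 13.3 ± 2.08 in WT and 14.8 ± 7.98 FPKM in KO (SD, n = 3 each), and Hist1h2ag 9.85 ± 5.81 and 11.4 ± 8.64. H2A was the family in which KO replicate 3 was the lowest library most often, for 9 of 12 genes. Only 6.50% of the stretches of Hist1h2ao were unique, and 93.5% were shared with Hist1h2ap, so the level of a single H2A gene is uncertain. Without KO replicate 3 the H2A median was 0.74, and without KO replicate 2 it was -0.17.

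Among the H2B genes, 7 of 11 were above 0 (median log2 fold change 0.27), and both ends of the family lay far apart. Hist1h2bj, the most abundant, had 25.3, 22.4 and 51.8 FPKM in WT and 54.3, 43.9 and 26.0 in KO. WT replicate 3 and KO replicates 1 and 2 formed the high set (log2 fold change 0.35, SE 0.392, limma adjusted p = 0.631). Hist1h2bk had means of 5.87 ± 4.37 in WT and 6.48 ± 1.82 FPKM in KO (SD, n = 3 each). Hist1h2bb had 4.22 ± 1.17 and 7.27 ± 5.19, the KO mean resting on 13.2 FPKM in KO replicate 2. Hist1h2bh, of lower level, had 1.21 ± 0.345 and 1.03 ± 0.509.

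Hist3h2ba, an H2B gene outside the main cluster (mm10 chr11:58948920-58949533, plus strand), had the lowest fold change of the 45, where 9 members were below 0 in all and 4 of these were H2B genes. It had 7.66, 12.8 and 6.03 FPKM in WT, on 77, 121 and 65 reads, and 2.90, 5.46 and 1.80 in KO, on 28, 44 and 20 reads. Every KO library lay below every WT library. The log2 fold change was -1.31 (SE 0.403, unadjusted p = 0.0142, limma adjusted p = 0.149), and -0.99 without KO replicate 3. Of its stretches 77.9% were unique, its promoter holds CCAAT and TATAAA but not the octamer, and its stem-loop core is the commonest one. Hist2h2be, an H2B gene on chromosome 3 known to give a long polyadenylated transcript, had 4.69, 5.19 and 2.35 FPKM in WT and 2.86, 2.06 and 2.03 in KO. WT replicate 3 lay below KO replicate 1, the only overlap between its groups (log2 fold change -0.65, SE 0.298, limma adjusted p = 0.257), and all of its stretches were unique.

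These genes belong to the smaller Hist2 and Hist3 clusters. Of the 4 members tested outside Hist1, 1 was above 0 (median log2 fold change -0.49), beside 35 of 41 in Hist1 (median 0.39). The difference between the clusters was not tested, and the filter favoured it. Hist3h2a passed through the WT mean alone, and Hist1h4m, Hist1h4j, Hist1h2ap and Hist1h2ad, all in Hist1, through the KO mean alone. The same genes are counted in the splits by length, stem-loop and unique stretches below. All 12 Hist2 and Hist3 members together made up 5.49%, 9.09% and 2.93% of the summed histone level in WT and 2.26%, 2.80% and 2.83% in KO, where the KO share lay below each WT share. Their FPKM summed to 14.6, 21.9 and 13.1 in WT and 10.7, 15.5 and 5.90 in KO, which overlapped. The genes of deposited length 1000 bases or more were above 0 in 3 of 8 cases (median -0.12), and the shorter ones in 33 of 37 (median 0.39). Members with a stem-loop match were above 0 in 27 of 32 cases (median 0.34) and those without in 9 of 13 (median 0.39). By sequence, 15 of 23 genes with at least 50% unique stretches and 21 of 22 of the others were above 0, with medians of 0.27 and 0.37.

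All 8 H3 genes tested, which encode the core histone with the most modified tail, were above 0 (median log2 fold change 0.52), and 1 had an unadjusted p under 0.05 (12.5%, beside 21.8% of all genes). Hist1h3c, second in level among all members, had 19.3, 20.3 and 61.6 FPKM in WT and 48.2, 63.9 and 23.8 in KO. WT replicate 3 stood with KO replicates 1 and 2, and KO replicate 3 with the other WT libraries (log2 fold change 0.53, SE 0.533, limma adjusted p = 0.595). Hist1h3h had 6.54, 9.03 and 18.4 in WT and 20.4, 23.7 and 14.0 in KO, with WT replicate 3 above KO replicate 3 (log2 fold change 0.84, SE 0.384, limma adjusted p = 0.252). Only 6.08% of its stretches were unique, and 79.3% were shared with Hist1h3i. Hist1h3f had 0.775, 1.45 and 1.67 FPKM in WT and 3.22, 3.44 and 1.49 in KO. KO replicate 3 lay within the WT range, and the gene had a log2 fold change of 0.81 with an SE of 0.344 (limma adjusted p = 0.229). Hist1h3g had means of 7.40 ± 4.38 and 8.55 ± 3.60 FPKM, and Hist1h3a 6.23 ± 4.22 and 7.91 ± 1.07 (SD, n = 3 each).

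All 10 H4 genes tested were above 0 as well (median log2 fold change 0.57), 2 of them at an unadjusted p under 0.05 (20%, beside 21.8% of all genes). Those 2, Hist1h4m and Hist1h4j, passed the filter through their KO mean alone, and of the other 8 none had such a p (median 0.53). The H4 genes encode the same protein, the partner of H3. Hist1h4i (mm10 chr13:22040636-22041362, minus strand), the most abundant histone gene in both groups, had 51.9, 41.02 and 48.7 FPKM in WT and 64.5, 103.3 and 27.4 in KO. WT libraries were close together, 2 KO libraries lay above them and 1 below (log2 fold change 0.27, SE 0.449, limma adjusted p = 0.754). Hist1h4d had means of 6.86 ± 4.95 and 9.41 ± 4.66 FPKM, and Hist1h4c 4.29 ± 2.20 and 5.70 ± 3.17 (SD, n = 3 each). Hist1h4h had 4.81, 3.33 and 3.76 in WT and 12.03, 7.62 and 2.83 in KO, with KO replicate 3 the lowest library.

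Hist1h4m (mm10 chr13:21811746-21812147, plus strand) had the smallest p of the members. It had 6, 0 and 0 reads in WT and 53, 20 and 18 in KO, or 0.912, 0 and 0 against 8.38, 3.79 and 2.48 FPKM. Every KO library lay above every WT library. The difference on the log2 scale was 2.78 with an SE of 0.549 (limma adjusted p = 0.0948), and the adjusted p was 0.0348 without KO replicate 3. However, 89.8% of its stretches also occur in Hist1h4n, which had 14, 34 and 34 reads in WT and 42, 40 and 30 in KO. Taken as a pair, they had 20, 34 and 34 reads in WT and 95, 60 and 48 in KO, so that the KO libraries still lay above all WT libraries but by a smaller factor. Hist1h4j had 5, 1 and 12 reads in WT and 16, 27 and 14 in KO, again without overlap (0.395, 0.0841 and 0.883 FPKM against 1.31, 2.66 and 1.002). It had a log2 fold change of 1.19 with an SE of 0.427 (limma adjusted p = 0.178), with 75.4% of stretches unique.

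**Figure D3:**
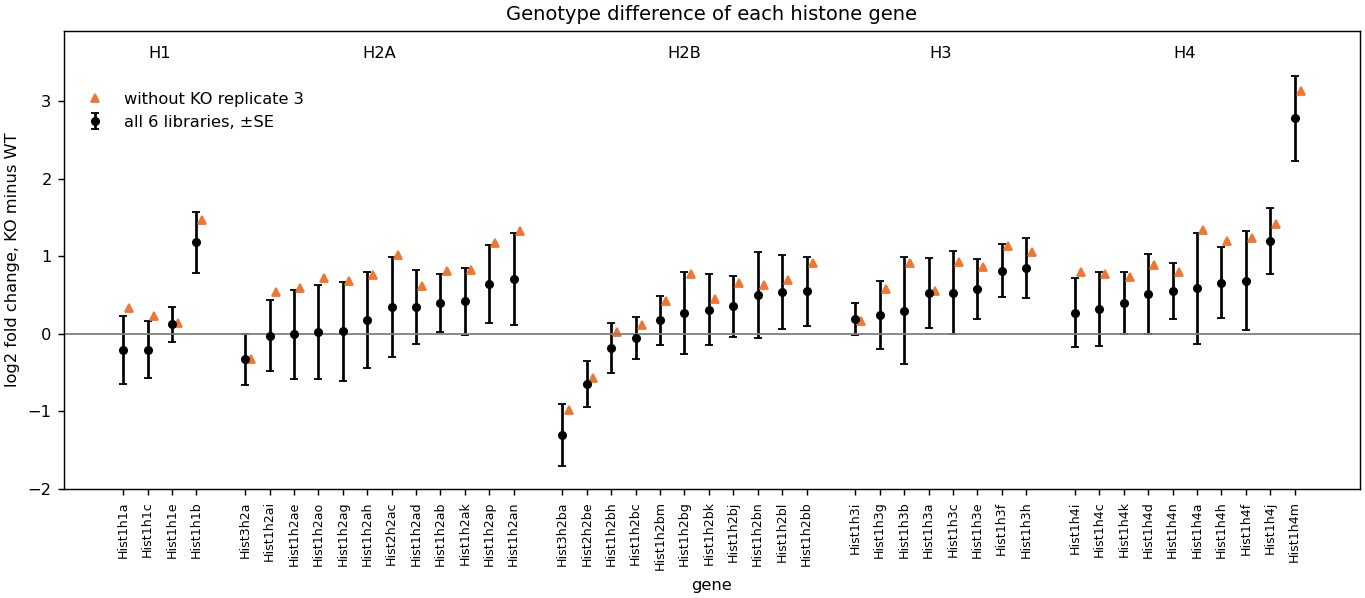
Log2 fold change of KO minus WT on the log2(FPKM + 0.5) scale (vertical axis) for each of the 45 histone genes tested, grouped by family and ordered by value, from all 6 libraries (circles, bars are 1 SE) and without KO replicate 3 (triangles). All H3 and H4 genes lie above 0, Hist3h2ba at -1.31 and Hist1h4m at 2.78 lie at the ends, and most triangles lie above their circles.

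Histone genes are often arranged head to head, so that a pair shares the stretch between its starts. Within 1000 bases 14 such pairs were found, 13 of them an H2A with an H2B gene, with starts 176 to 660 bases apart. Both partners were tested in 7 pairs, and 3 had estimates of the same sign. Hist1h2ag and Hist1h2bj had 0.03 and 0.35, and Hist2h2ac and Hist2h2be, 239 bases apart, had 0.34 and -0.65. Hist2h2ac had 1.17, 2.88 and 3.94 FPKM in WT and 3.91, 7.47 and 0.959 in KO. It was highest in KO replicate 2 and lowest in KO replicate 3, whereas its partner was highest in WT replicate 2.

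Genes of the surrounding pathway were taken from lists chosen with earlier results of these data known. Of the factors that form and turn over histone mRNA ends, 16 of 21 tested were above 0 (median log2 fold change 0.38), those with an unadjusted p under 0.05 were 8 higher and 0 lower, and 0 were called. Of all genes 52.4% were above 0, and 11.5% were higher and 10.2% lower at such a p. Without KO replicate 3, 6 of these 21 were called, beside 13.7% of all genes. Slbp, which binds the stem-loop, had 23.1, 20.5 and 24.3 FPKM in WT and 32.85, 29.85 and 24.5 in KO. KO replicate 3 barely exceeded WT replicate 3 (log2 fold change 0.34, SE 0.171, limma adjusted p = 0.288). The Sm proteins Snrpe and Snrpg, shared by U7 and the spliceosome, had means of 133.6 ± 12.6 and 208.2 ± 126.5, and of 117.6 ± 10.2 and 204.3 ± 131.1 FPKM (SD, n = 3 each).

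Among histone chaperones and the enzymes that acetylate new histones, 15 of 17 were above 0 (median 0.42), beside 52.4% of all genes. At an unadjusted p under 0.05, 6 were higher and 0 lower, beside 11.5% and 10.2% of all genes. In this list 0 were called, and 7 were called without KO replicate 3, beside 13.7% of all genes. Set, a histone chaperone, had 105.3, 95.4 and 149.4 FPKM in WT and 238.1, 224.3 and 238.1 in KO, without overlap and without the drop in KO replicate 3 (log2 fold change 1.02, SE 0.217, limma adjusted p = 0.0970). Npm1, a nucleolar chaperone, had 1192, 967 and 888 FPKM in WT and 2109, 3423 and 1030 in KO (limma adjusted p = 0.271). Of cyclin E, CDK2 and transcription factors of histone genes, 5 of 9 were above 0 (median 0.07). Those at an unadjusted p under 0.05 were 3 higher and 0 lower, with 1 called without KO replicate 3, beside the same shares of all genes. E2f2 had means of 40.8 ± 5.87 and 27.5 ± 7.90 FPKM and Yy1 of 28.3 ± 0.178 and 29.7 ± 1.02 (SD, n = 3 each).

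The genes listed as replication-independent histone variants had no common lean: 4 of 9 were above 0 (median -0.01). At an unadjusted p under 0.05, 0 were higher and 2 lower, beside 11.5% and 10.2% of all genes. In this list 0 were called, and 1 was called without KO replicate 3, beside 13.7% of all genes. H2afz, which encodes H2A.Z, had 456.2, 363.2 and 399.7 FPKM in WT and 703.4, 1164 and 335.8 in KO, ordered across the KO libraries as the S phase genes were. H3f3b, which encodes H3.3, had means of 220.3 ± 3.25 and 225.3 ± 15.1 (SD, n = 3 each). Each exceeded every replication-dependent gene in FPKM.

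DNA replication and S phase genes were above 0 in 33 of 35 cases (median 0.36), beside 52.4% of all genes. At an unadjusted p under 0.05, 6 were higher and 0 lower, beside 11.5% and 10.2% of all genes. None was called (0 of 35), and 9 were without KO replicate 3, beside 13.7% of all genes. They summed to 1574, 1455 and 1815 FPKM in WT and 2305, 2666 and 1735 in KO. As for the histone genes, KO replicates 1 and 2 were the highest, but KO replicate 3 lay within the WT range. The ratio of the histone sum to this sum took values of 0.169, 0.165 and 0.246 in WT and of 0.205, 0.208 and 0.120 in KO, with KO replicate 3 the lowest and WT replicate 3 the highest. Pcna, the sliding clamp, had means of 294.3 ± 33.4 and 499.8 ± 233.7 FPKM, and the helicase subunit Mcm5 of 101.1 ± 13.7 and 123.2 ± 9.95 (SD, n = 3 each).

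Other RNAs listed as lacking a poly(A) tail were set beside the histone genes. Whether their reads came from forms with or without a tail was not tested. Of 17, 6 passed the filter and 9 had no reads in any library, and 3 of the 6 were above 0. At an unadjusted p under 0.05, 1 was higher and 2 were lower, beside 11.5% and 10.2% of all genes. Rn7sk, the 7SK small nuclear RNA, had 6.09, 5.31 and 5.68 FPKM in WT and 23.8, 20.9 and 23.6 in KO. All KO libraries, KO replicate 3 included, lay above all WT libraries (log2 fold change 1.91, SE 0.144, limma adjusted p = 0.0143). It was the 1 gene called in these lists. The long noncoding RNA Malat1 differed in the other direction, with 31.3, 45.2 and 30.95 FPKM in WT and 19.45, 12.1 and 26.9 in KO (log2 fold change -0.91, SE 0.310, limma adjusted p = 0.166). Neat1, the scaffold RNA of paraspeckles, was lower as well, at -0.58 (SE 0.239, limma adjusted p = 0.218). Neither overlapped between groups. Terc, the telomerase RNA, had 0, 0.308 and 1.615 FPKM in WT and 1.35, 1.80 and 0.131 in KO, low in KO replicate 3.

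**Figure D4:**
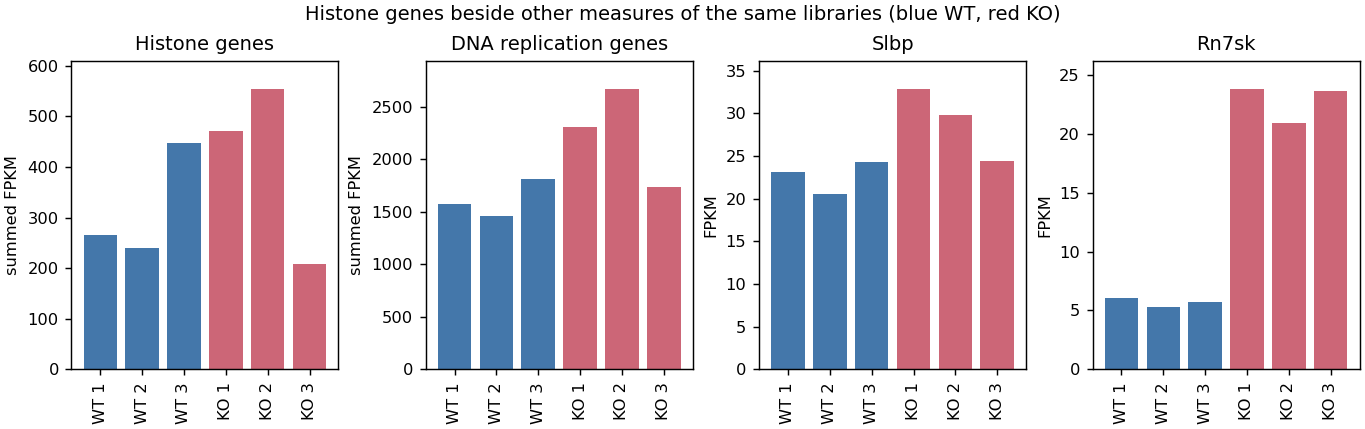
Summed FPKM of the histone genes, summed FPKM of 35 DNA replication genes, and the FPKM of Slbp and Rn7sk (vertical axes, each panel on its own scale) in the 6 libraries (horizontal axis, 1 bar each, blue WT and red KO). The histone sum is lowest in KO replicate 3 at 208.9, where DNA replication genes and Slbp are near WT levels and Rn7sk is as high as in the other KO libraries.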

How the data were processed

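RNA sequencing values were the authors' deposited FPKM, 1 per gene and sample for 54532 genes, beside a deposited gene length. Per the submitters' processing notes, the tools were DESeq2, featureCounts 1.5.0-p3, HISAT2 2.0.5 and Trim Galore, with the build mm10, and no role or order is stated. Not given in the sources used here are the annotation release, the strand setting and the treatment of reads with several matches.

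Multiplied by length, at least 99.99% of the FPKM values of each sample came to a whole number of equal steps (tolerance 0.05), and each step was taken as 1 read (14932604 to 16819913 per sample). Names that read as dates were restored for 27 genes. Genes averaging 0.5 FPKM or more were tested as log2(FPKM + 0.5) in limma 3.58.1 (R 4.3.3), using trended eBayes, 2-sided, with genotype as the only term, with Benjamini-Hochberg adjustment over 12654 genes; the test was checked on simulated data. Fold changes on this scale understate those of low genes. Unique sequence is the share of 50-base windows of a gene's GENCODE M21 transcripts found in no other gene, on either strand. Plots used Python 3.11.15 and matplotlib 3.10.9.

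The members and lists were chosen with earlier results of these data known. Named genes were, per family, the 4 members of highest mean FPKM, then the 6 with the smallest p and the 5 highest and 5 lowest fold changes at a mean FPKM of at least 1, and per list its called members or the 2 of highest FPKM, with Slbp and Ptpmt1. Malat1, Neat1, Terc, Mpo, S100a8, S100a9, the CD8 T cell markers, Hist2h2ac and Hist1h4n were chosen after their values were seen. So were the genes at 0 and those named for length or sequence. Alternatives covered the pseudocount, filter, scaling, variance trend, sample weights, replicate block, limma-voom on rebuilt reads and leaving out each sample.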

Additional observations from a re-analysis of the deposited data

How the results depend on the processing

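With all libraries kept and weighted equally, 0 histone genes were called under every setting but the replicate block, which called 1, Hist1h4m. That gene had passed the filter through its KO mean alone. All genes called numbered 5 as reported, 3 with a pseudocount of 1, 3 with no filter, 14 with no variance trend, 12 with the replicate block and 1 with limma-voom. Whether the replicate numbers pair the samples cannot be decided from these values, because deviations within a group of 3 libraries sum to 0. Deviations of same-numbered samples correlated at 0.13, 0.07 and 0.33, the last being the highest of all pairs. WT replicate 1 correlated best with KO replicate 2, at 0.27. Sample weights, estimated gene by gene because the REML estimate could not be fitted, ranged from 9.10 for KO replicate 1 to 0.192 for KO replicate 3. They gave 6710 genes called, or 53.03% of all genes, and 31 of 45 histone genes called, 29 higher and 2 lower in KO. At an unadjusted p under 0.05 there were 37 histone genes, 34 higher and 3 lower, beside 59.15% of all genes. Median log2 fold changes under these weights were 0.98 for members, 0.31 for H1, 0.79 for H2B, 1.09 for H3 and 1.30 for H4. The H1 median of -0.04 became 0.067 with no filter. Leaving out 1 library at a time gave 2 to 1733 genes called, 0 to 3 histone genes called and 1 to 13 at an unadjusted p under 0.05, the largest values without KO replicate 3. Of all genes, 13.7% were called and 34.99% had an unadjusted p under 0.05 without KO replicate 3. Without WT replicate 2, 1 member had such a p, beside 10.57% of all genes. Without WT replicate 3 there were 12 members, 10 higher and 2 lower in KO, beside 22.23% of all genes. With 1 library left out at a time, the median log2 fold change ran from 0.16 to 0.76 for members and from -0.18 to 0.28 for H1. It ran from -0.17 to 0.74 for H2A, -0.05 to 0.45 for H2B, 0.28 to 0.94 for H3 and 0.31 to 1.04 for H4. The H1 median was 0.06 without WT replicate 3, that of H2A was -0.01 without WT replicate 1, and that of H2B was -0.049 without WT replicate 2. The H3 and H4 medians stayed above 0 in all settings run, and the signs of those of H1, H2A and H2B depended on single libraries. Read depth limits low members: the member with the fewest reads that passed, Hist1h2ad, had 31 over 6 libraries.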
